A study of Penicillium oxalicum with 12 samples.

Results

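The genes described here are abundant transcripts of the filamentous fungus *Penicillium oxalicum* whose mean level stayed close between media and strains. They were chosen from FPKM, fragments counted per gene and scaled by gene length and by the number of fragments mapped in the library. A gene was a member if its mean FPKM was at least 200 in each of 3 groups, namely WT in glucose medium, WT in cellulose medium and ΔPodot1 in glucose medium, and if the highest of these means was less than 1.5 times the lowest. Of 9909 genes listed in at least 1 library, 219 reached the level minimum in all 3 groups, and 49 of these also met the ratio limit. The other 170 abundant genes serve below as the nearest set for comparison. Since the values of the 9 libraries of these 3 groups chose the members, the members' values in them are given as a description without a test. Only the 3 libraries labelled ΔPodot1 in cellulose medium are independent of the choice.

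Cells keep a part of their transcripts at a near constant level because the products, such as the components of ribosomes, the cytoskeleton and the core signalling proteins, are needed in every condition. Transcripts of this kind are also used as references in RT-qPCR, where actin, glyceraldehyde-3-phosphate dehydrogenase and elongation factor 1-alpha are common choices. *P. oxalicum* secretes enzymes that degrade plant cell walls, and a move from glucose to cellulose as carbon source is known to change many of its abundant transcripts. Dot1 is the methyltransferase of a lysine in the globular core of histone H3, and its mark is found over transcribed genes in yeast and animals.

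The WT was strain 114-2, and in ΔPodot1 the coding region of *Podot1* had been replaced by a hygromycin resistance marker. Both strains were moved as mycelia into medium with 2% glucose or with 1% cellulose and 1% wheat bran, and were harvested after 24 h at 30°C, with 3 biological replicates in each of the 4 groups. Per library the estimated counts summed to between 4607764 and 7081689.

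Libraries of the group labelled ΔPodot1 in cellulose stood apart from their label. The transcript of *Podot1* (PDE_07484) gave 341 counts in replicate 1 and 613 counts in replicate 2 of this group and was not listed in replicate 3, whereas the 3 ΔPodot1 libraries in glucose held 0, 1 and 2 counts. Replicates 1 and 2 thus had 33.4 and 58.4 FPKM of this transcript, beside 25.8 to 36.4 FPKM in the WT libraries. The summed level of 10 glycoside hydrolase genes, markers of the cellulose medium, was 34018 to 40652 FPKM in WT in cellulose and 124 to 173 FPKM in the 6 glucose libraries. It was 13287 and 16076 FPKM in replicates 1 and 3 of the labelled ΔPodot1 group in cellulose but 218 FPKM in replicate 2. Across genes, log2(FPKM + 1) of replicate 2 had a Pearson correlation of 0.66 and 0.64 with the other replicates of its group and of 0.92 with replicate 3 of ΔPodot1 in glucose. These 3 libraries are therefore named by their label, and values without replicate 2 or for replicate 3 alone are given beside the main counts and the main tests. Values without replicate 2 still join replicate 1, where *Podot1* was at the WT level, and replicate 3, where it was not listed.

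The 49 members ran from 220 to 2569 FPKM as the mean of the 3 group means, with a median of 399 FPKM. There were 15 members from 200 to 300 FPKM, 26 from 300 to 600 FPKM and 8 at 600 FPKM or more. The most abundant member, PDE_03961, alone held 10.9% of the FPKM of the members, and the 3 most abundant held 20.1%. The other 170 abundant genes had a median of 666 FPKM and reached 8155 FPKM, so the members were not the most abundant genes, and PDE_03961 was number 25 of all genes listed.

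All members together took 3.21% ± 0.19 of all FPKM in WT in glucose (SD, n = 3), 3.01% ± 0.56 in WT in cellulose, 3.19% ± 0.06 in ΔPodot1 in glucose and 3.23% ± 0.32 in the labelled ΔPodot1 group in cellulose. Over the 12 libraries the share ran from 2.48% in WT replicate 3 in cellulose to 3.59% in WT replicate 1 in cellulose, so the range lay within 1 group. The 219 genes above the level minimum took 33.6% ± 1.28, 23.0% ± 2.21, 28.6% ± 1.92 and 21.2% ± 4.52 of all FPKM in the same order of groups. Measured as a share of the estimated counts, which are not divided by gene length, the members held 2.62%, 2.43%, 2.53% and 2.66%.

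**Figure D1:**
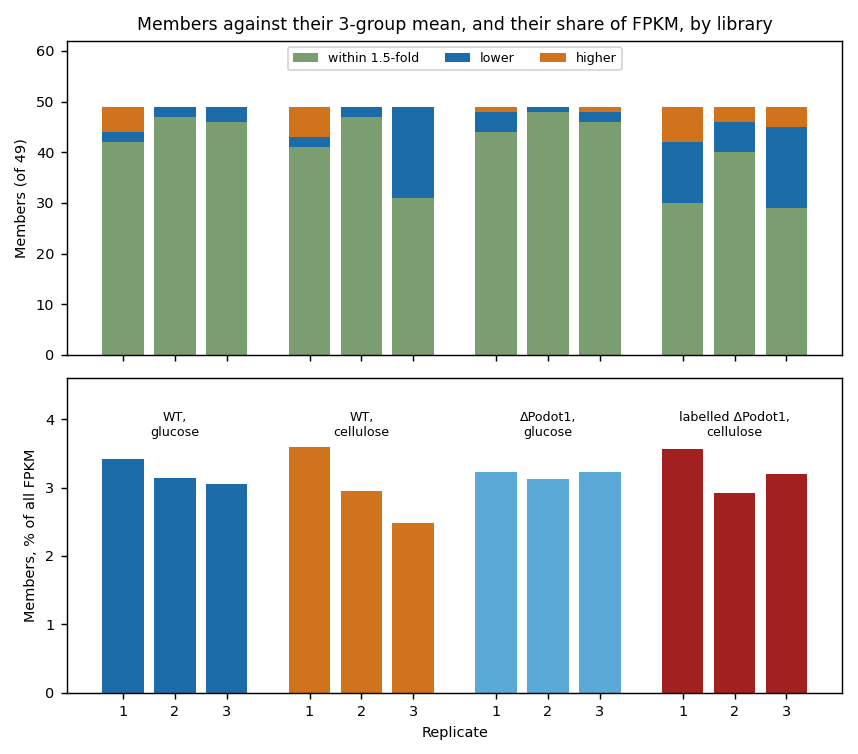
Upper panel: number of the 49 members in each library whose FPKM lay within 1.5-fold of the mean of the 3 groups of the rule (green), below it (blue) or above it (orange). Lower panel: share of all FPKM held by the members, in percent. Bars stand for single libraries. The share lay between 2.48% and 3.59% in every library, while the number within 1.5-fold fell to 31, 30 and 29 in WT replicate 3 and in labelled ΔPodot1 replicates 1 and 3 in cellulose.

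The files give no name for the 4 genes that lead the list, and the pull-down table of the study calls PDE_03961 uncharacterized. PDE_03961 had 2985, 2642 and 2517 FPKM in WT replicates 1 to 3 in glucose, 2570, 2232 and 2315 FPKM in WT in cellulose, and 2711, 2832 and 2321 FPKM in ΔPodot1 in glucose. The labelled ΔPodot1 libraries in cellulose had 3420, 1763 and 3206 FPKM. The first 9 values overlap between the groups, whereas in the last group replicate 2 lies below and replicates 1 and 3 lie above all 9. The log2 fold change against the other groups was -0.02 (standard error 0.35, adjusted p = 0.978, edgeR's quasi-likelihood test). It was 0.25 without replicate 2 and 0.23 for replicate 3 alone, and neither passed the test.

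PDE_08488, the next in level, had 1047, 1353 and 1374 FPKM in WT in glucose, 1723, 1027 and 674 FPKM in WT in cellulose, and 1233, 1464 and 1716 FPKM in ΔPodot1 in glucose. In the labelled ΔPodot1 group in cellulose it had 1283, 934 and 2260 FPKM. Its groups overlapped, and the libraries of WT in cellulose differed by more than its group means did.

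PDE_02070 had similar group means that came from uneven libraries. In WT its replicates 1 to 3 had 1114, 735 and 384 FPKM in glucose and 1617, 619 and 546 FPKM in cellulose, and the ΔPodot1 libraries in glucose had 1274, 874 and 512 FPKM. The labelled ΔPodot1 libraries in cellulose had 1696, 823 and 1792 FPKM, with replicates 1 and 3 above all the others. The log2 fold change against the other groups was 0.63 (standard error 0.43, adjusted p = 0.337, edgeR's quasi-likelihood test). The coefficient of variation, which is the SD as a percent of the mean, averaged 48.4% over the 4 groups for this gene.

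The other genes among the 10 most abundant members were PDE_01489, PDE_00106, PDE_01903, PDE_05144, PDE_06755, PDE_05280 and PDE_03841, with means of the 3 groups between 582 and 907 FPKM. Of these only PDE_05280 is paired with a protein name by the sources used here, and PDE_01903 is described further below with the genes that fell.

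Of the 49 members 9 are in the table of proteins that were purified together with tagged PoDot1 in the study, and 5 of them have a protein name there. That table leans to abundant proteins, so the names describe these members and say nothing about the rest, and for 43 members neither this table nor a KEGG description gave a name. The 64 named genes of the table were sorted by role, as lists fixed with earlier results of these data known. The translation list held 18 genes, of which 10 reached the level minimum and 2 were members. Of 17 genes of energy and central carbon metabolism 4 reached the level and none was a member, and of 6 genes of amino acid and methyl donor metabolism 2 reached it and none was a member. Among 7 genes of chaperones, folding and redox there was 1 member of 4 at the level, and among 16 genes of cytoskeleton, signalling, membrane and proteolysis there were 2 of 4. The median ratio between the highest and the lowest group mean was 2.80 over the 64 genes, and it was highest in the energy list, at 6.01. Between the media in WT the edgeR test called 11 of the 18 translation genes, 15 of the 17 energy genes, 4 of the 6 amino acid genes and 2 of the 7 chaperone genes, all lower in cellulose, and in the last list of 16 genes 7 lower and 1 higher. Of all genes tested 15.9% were called lower and 19.2% higher in this comparison. The 5 named members were not among these genes, as the rule requires. The test used libraries of the rule, so these calls describe the lists and say nothing about the members.

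The 14-3-3 gene PDE_05280 codes for a small adaptor that binds phosphorylated proteins in all eukaryotes. It was among the evenest members, with 644, 574 and 579 FPKM in WT in glucose, 620, 693 and 552 FPKM in WT in cellulose, and 531, 554 and 632 FPKM in ΔPodot1 in glucose. Libraries labelled ΔPodot1 in cellulose, which had no part in the choice, had 598, 548 and 519 FPKM. All 4 groups overlapped, and the highest of the 12 libraries was 1.34 times the lowest. Against the other groups the labelled ΔPodot1 group differed by -0.27 on the log2 scale (standard error 0.23, adjusted p = 0.462 in the edgeR test), by -0.22 without replicate 2 and by -0.30 for replicate 3 alone.

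PDE_00374, the gene of 60S ribosomal protein L5, which carries the 5S rRNA into the large ribosomal subunit, had 547, 631 and 631 FPKM in WT in glucose and 547, 482 and 268 FPKM in WT in cellulose. It had 571, 474 and 493 FPKM in ΔPodot1 in glucose, and 447, 455 and 458 FPKM in the labelled ΔPodot1 libraries in cellulose. In that last group it was the tightest member, with a coefficient of variation of 1.21%, and WT replicate 3 in cellulose was the lowest library. The log2 fold change of that group against the others was -0.34 (standard error 0.28, adjusted p = 0.428, edgeR's quasi-likelihood test), with -0.30 without replicate 2 and -0.26 for replicate 3 alone.

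The gene of translation initiation factor 5A (PDE_02849), a factor that also helps ribosomes through stretches they pass with difficulty, had 125, 342 and 309 FPKM in WT in glucose and 234, 283 and 197 FPKM in WT in cellulose. In ΔPodot1 in glucose it had 348, 303 and 324 FPKM. In the labelled ΔPodot1 group in cellulose it had 516, 405 and 381 FPKM, each above all 9 other libraries, yet the log2 fold change of 0.51 did not pass the test (standard error 0.30, adjusted p = 0.264, edgeR's quasi-likelihood test). Nor did 0.59 without replicate 2 or 0.39 for replicate 3 alone.

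Both members of the proteolysis list are peptidases, of which PrtB is a serine protease of the vacuole, where fungi degrade proteins for reuse. The *prtB* gene (PDE_09396) had 357, 539 and 580 FPKM in WT in glucose, 619, 804 and 672 FPKM in WT in cellulose, and 570, 539 and 505 FPKM in ΔPodot1 in glucose. The labelled ΔPodot1 libraries in cellulose had 1463, 478 and 1072 FPKM, so that replicates 1 and 3 lay above all other libraries and replicate 2 lay within them. The log2 fold change against the other groups was 0.67 with all 3 libraries (standard error 0.35, adjusted p = 0.204) and 1.02 without replicate 2 (standard error 0.26, adjusted p = 0.00999), both by edgeR. For replicate 3 alone it was 0.81 (adjusted p = 0.111). The carboxypeptidase gene PDE_08101 had 300, 447 and 426 FPKM in WT in glucose, 255, 380 and 362 FPKM in WT in cellulose, and 487, 457 and 470 FPKM in ΔPodot1 in glucose. With 416, 529 and 464 FPKM in the labelled ΔPodot1 libraries in cellulose, it differed from the other groups by 0.09 on the log2 scale (standard error 0.26, adjusted p = 0.848, edgeR's quasi-likelihood test), by 0.03 without replicate 2 and by 0.14 for replicate 3 alone.

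The common reference genes of RT-qPCR were abundant but were not members. Actin (PDE_01092), the reference of the study, had 681 ± 224 FPKM in WT in glucose, 327 ± 43.0 FPKM in WT in cellulose and 770 ± 54.0 FPKM in ΔPodot1 in glucose (SD, n = 3 each), a ratio of 2.36 between the highest and the lowest mean. Glyceraldehyde-3-phosphate dehydrogenase (PDE_09952), an enzyme of glycolysis, had 2629 ± 882, 629 ± 47.6 and 3326 ± 510 FPKM in the same groups, a ratio of 5.29. Elongation factor 1-alpha (PDE_02596), which brings aminoacyl-tRNA to the ribosome, had 5667 ± 1480, 3136 ± 655 and 5628 ± 459 FPKM, a ratio of 1.81. In the labelled ΔPodot1 group in cellulose the 3 genes averaged 629, 2048 and 3644 FPKM. Against the other groups their log2 fold changes were 0.01, 0.01 and -0.52 (adjusted p = 0.992, 0.990 and 0.44, edgeR's quasi-likelihood test). Over 21 alternative fits these ran from -0.21 to 0.19, from -1.13 to 0.35 and from -0.62 to -0.34. The other groups differ in level, so a value near 0 against their average does not show a kept level. Against WT in cellulose alone the log2 fold changes were 0.86, 1.59 and 0.13, and against ΔPodot1 in glucose -0.46, -0.90 and -0.79. None of these passed the adjusted p. Between the media in WT, edgeR's quasi-likelihood test gave a log2 fold change of -1.24 for actin (standard error 0.40, adjusted p = 0.0288), -2.25 for glyceraldehyde-3-phosphate dehydrogenase (standard error 0.60, adjusted p = 0.0123) and -1.03 for elongation factor 1-alpha (standard error 0.53, adjusted p = 0.138). The first 2 genes fell in cellulose, and the change of elongation factor 1-alpha did not pass the test. These libraries were used by the rule, so the test is no separate evidence that the genes were not members. Between the strains in glucose the log2 fold changes were 0.08, 0.24 and -0.11 in the same order of genes (standard errors 0.39, 0.57 and 0.52).

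The ratio of the highest to the lowest of the 3 group means was 1.06 to 1.497 with a median of 1.25. It was under 1.2 in 17 members and at least 1.4 in 13. The highest of the 3 means belonged to WT in glucose in 23 members, to ΔPodot1 in glucose in 15 and to WT in cellulose in 11, and the lowest to WT in cellulose in 24 members, to ΔPodot1 in glucose in 17 and to WT in glucose in 8. Just inside the ratio limit were PDE_07428 and PDE_01489, both at 1.497, and just outside were PDE_04132 at 1.504 and PDE_03757 at 1.519. At the level minimum the lowest group mean was 200.9 FPKM in PDE_03264 and PDE_00192, just inside, and 198.0 FPKM in PDE_06362 and 196.6 FPKM in PDE_07132, just outside. Of the 170 other abundant genes, 104 were at least 1.5 times lower and 28 at least 1.5 times higher in cellulose than in glucose in WT, and 61 were lower and 12 higher by that factor in ΔPodot1 than in WT in glucose. No member was called between any pair of these 3 groups, where the share of all genes tested that was called was 35.1% between the media in WT, 8.84% between the strains in glucose and 44.6% between WT in cellulose and ΔPodot1 in glucose. The rule fixes this count, and nothing is read from it.

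Close group means did not always mean close libraries. Over the 9 libraries of the rule the highest value was less than 1.5 times the lowest in 8 members, less than 2 times in 25 and at least 3 times in 6, with a median of 1.96. Over all 12 libraries it was less than 1.5 times in 2 members, PDE_00777 and PDE_05280, and less than 2 times in 16. Among the 170 other abundant genes 2 stayed under 2 times over the 12 libraries. PDE_00777, which has no name in the sources, ran from 359 to 476 FPKM over the 12 libraries.

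The spread between replicates was smallest in PDE_01695, PDE_05280 and PDE_00777, where the coefficient of variation averaged 8.44%, 8.59% and 9.61% over the 4 groups. PDE_01695 had 603, 560 and 468 FPKM in WT in glucose, 502, 516 and 452 FPKM in WT in cellulose, 487, 406 and 429 FPKM in ΔPodot1 in glucose, and 389, 422 and 423 FPKM in the labelled ΔPodot1 libraries in cellulose. At the other end, PDE_07428 and PDE_00424 averaged 67.7% and 58.8%. PDE_07428 had 999, 125 and 102 FPKM in WT in cellulose, a group mean of 409 FPKM that none of its libraries was near, beside 315, 539 and 496 FPKM in WT in glucose and 248, 233 and 420 FPKM in ΔPodot1 in glucose. PDE_00424 likewise had 730, 143 and 112 FPKM in WT in cellulose. In the labelled ΔPodot1 group in cellulose PDE_07428 had 1252, 366 and 285 FPKM, and PDE_00424 had 1172, 742 and 182 FPKM. In both genes WT replicate 1 in cellulose carried most of the group mean, and PDE_07428 stayed a member in 4 of the 9 selections that left out 1 library.

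The median over the members of the coefficient of variation averaged over the 4 groups was 20.8%, against 32.8% for the 170 other abundant genes and 29.8% for genes averaging 1 FPKM or more. Within the groups the median of the members was 13.4% in WT in glucose, 24.2% in WT in cellulose, 9.97% in ΔPodot1 in glucose and 29.6% in the labelled ΔPodot1 group in cellulose, and that of the other abundant genes was 29.8%, 31.2%, 13.7% and 46.6%. A gene with a wide spread misses the ratio limit more often, so the smaller spread in the first 3 groups is partly built into the choice. In the labelled ΔPodot1 group in cellulose the difference rested on replicate 2: without it the median was 19.2% for the members and 16.6% for the other abundant genes.

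**Figure D2:**
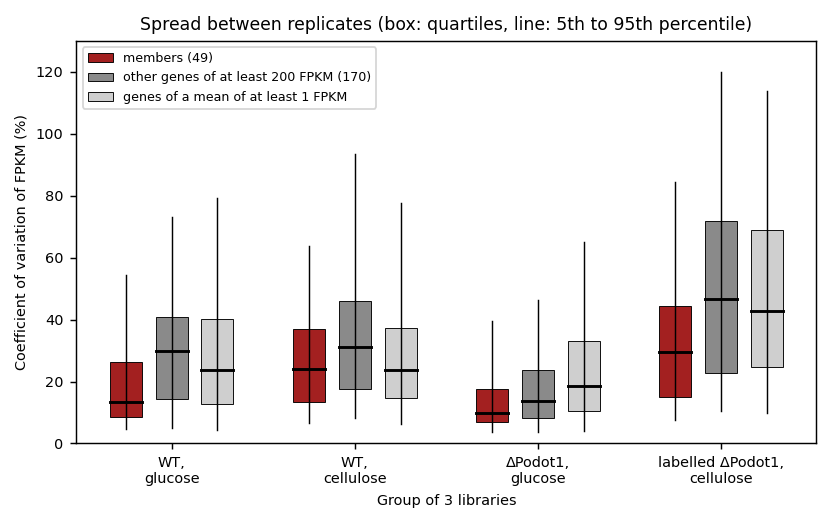
Coefficient of variation of FPKM between the 3 libraries of each group, in percent, for the 49 members (red), the 170 other genes of at least 200 FPKM (dark grey) and genes averaging 1 FPKM or more (light grey). The black bar is the median, the box the quartiles and the line the 5th to 95th percentile. With all 3 libraries the median of the members lay below that of the other abundant genes in each group, but without replicate 2 of the labelled ΔPodot1 group it lay above it there (19.2% and 16.6%). In WT in cellulose it was close to that of the wide set (24.2% and 23.8%).

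The members had a median length of 1070 bases in the deposited tables, with quartiles of 666 and 1492 and a range of 207 to 2796. The other 170 abundant genes were shorter at a median of 914.5 bases, and the genes averaging 1 FPKM or more longer at 1387 bases. At most 1000 bases were given for 42.9% of the members, 55.3% of the other abundant genes and 31.2% of the wide set. Length enters FPKM, on which the members were chosen, so these values are a description.

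In the labelled ΔPodot1 group in cellulose 35 of the 49 members had a mean within 1.5-fold of the mean of the 3 other groups, 6 lay above and 8 below. Of all genes tested 59.4% lay within this limit, and of the 170 other abundant genes 101 did, with 7 above and 62 below. The mean of the 3 groups is a level that the members hold by choice and that many of the others do not, which favours the members in this count. Without replicate 2, 32 members were within 1.5-fold, with 6 above and 11 below. The background was then 47.9% of all genes tested and 79 of the 170 other abundant genes. For replicate 3 alone the numbers of members were 29, 4 and 16, where 44.1% of all genes and 69 of the 170 were within the limit. In single libraries of the group 30, 40 and 29 members lay within 1.5-fold, compared with 41, 47 and 31 in WT in cellulose, 42, 47 and 46 in WT in glucose, and 44, 48 and 46 in ΔPodot1 in glucose. The libraries of the 3 groups of the rule contribute to the mean they are set against, and those labelled ΔPodot1 in cellulose do not. In WT replicate 3 in cellulose all 18 members outside the limit lay below it.

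**Figure D3:**
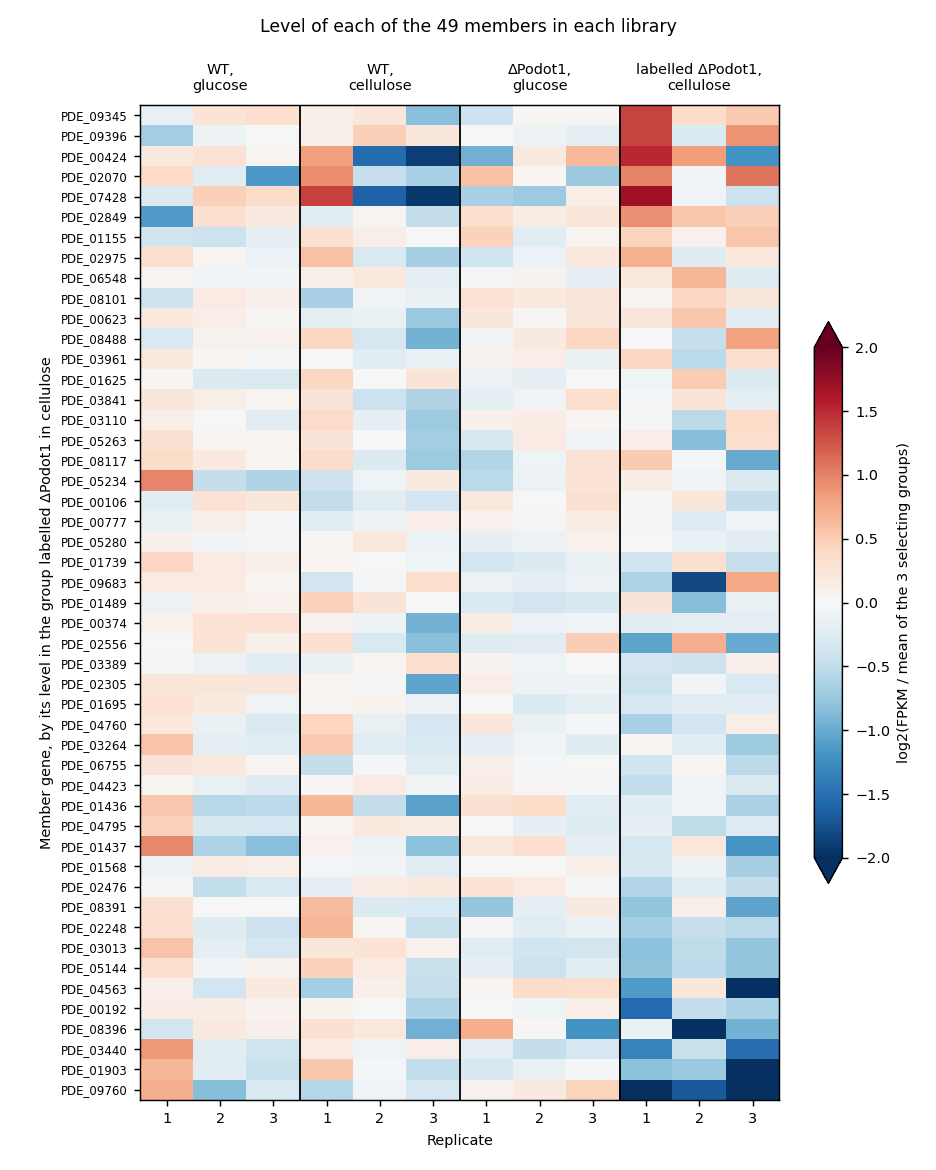
log2 of the FPKM of each member in each library over its mean of the 3 groups of the rule, with the members ordered by their level in the labelled ΔPodot1 group in cellulose. Red is above and blue below that mean, and the scale ends at 2 in either direction. The 9 libraries on the left chose the members. At the foot of the right-hand columns PDE_09760, PDE_01903 and PDE_03440 are low, and at the top replicates 1 and 3 differ from replicate 2 for PDE_09396.

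The median log2 ratio of the members between this group and the mean of the others was -0.18 on the FPKM scale, beside 0.11 for all genes tested and -0.38 for the 170 other abundant genes. The edgeR fit uses TMM scaling, which sets libraries to a common level by a trimmed mean over genes. There the median was -0.31 for the members, -0.39 for the 170 other abundant genes and 0.13 for all 9088 genes tested. Scaling by library size alone moved the median of all genes to 0.29, so the members are best read against the other sets. The median of the members lay above that of the other abundant genes on both scales. The order of the members by level was largely kept, with a Spearman correlation of 0.80 across the 49 genes between the 3-group mean and the labelled ΔPodot1 group in cellulose, against 0.70 across the 170 others. Without replicate 2 these values were 0.73 and 0.46, and for replicate 3 alone 0.71 and 0.31. Genes are not independent replicates, and a shared library composition enters both means.

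**Figure D4:**
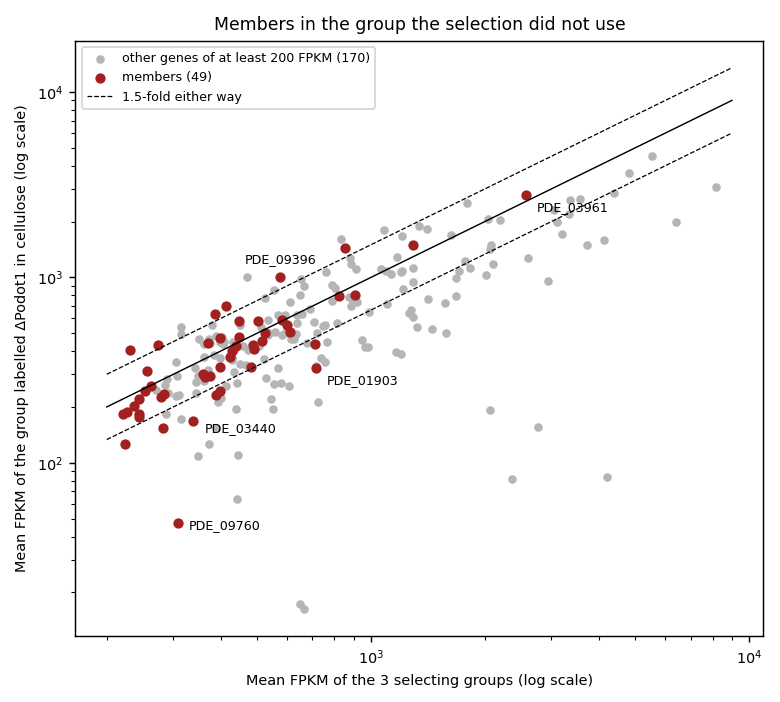
Mean FPKM in the labelled ΔPodot1 group in cellulose against the mean of the 3 groups of the rule, both on log scales, for the 49 members (red) and the 170 other genes of at least 200 FPKM (grey). The solid line marks equal levels and the dashed lines 1.5-fold either way. Between the dashed lines lie 35 members and 101 of the other genes, and PDE_09760 lies far below.

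To ask whether single members changed, every gene was fitted with edgeR's quasi-likelihood model, and a call needed both a 2-fold change and a p below 0.05 after Benjamini-Hochberg adjustment. Against the mean of the 3 other groups 3 of 49 members were called, all lower, and 15 of the 170 other abundant genes, all lower. Of all genes tested 16.7% were called, 2.9% lower and 13.8% higher. The level minimum was required of the 3 other groups and not of the labelled ΔPodot1 group in cellulose, which favours lower calls in both abundant sets. The direction is therefore not read as a trait of the members. No member was called higher, and in this fit none was higher at an unadjusted p under 0.05 (2151 of all 9088 genes were). DESeq2 called 0 members higher as well, with 15.2% of all genes called higher. At an unadjusted p under 0.05, 2 members were higher with DESeq2 (2173 of all genes). There were 2 with limma on log2(FPKM + 1) (2009 of all genes) and 3 with library size as the only scaling in edgeR (2673 of all genes). Against WT in cellulose the same 3 members were called lower and none higher, where 10.8% of all genes were called lower and 14.3% higher. This comparison depended on single WT libraries in cellulose. Without replicate 1 the lower calls dropped to PDE_09760 alone and PDE_07428 was called higher (log2 fold change 2.41, standard error 0.70, adjusted p = 0.0378 by edgeR), where 9.17% of all genes were called lower and 9.35% higher. Without replicate 2 only PDE_09760 was called, where 6.59% were called lower and 5.51% higher, and without replicate 3 there were 5 calls, all lower, where 7.21% were called lower and 6.39% higher. Against ΔPodot1 in glucose 1 member was called, lower, where 3.96% were called lower and 13.4% higher. These 3 comparisons share the labelled ΔPodot1 libraries, and WT in cellulose and ΔPodot1 in glucose were among the groups that chose the members. Replicate 2 weighed on the counts. Without it 8 members were called against the other groups, 7 lower and 1 higher, where the background was 10.1% lower and 18.4% higher. The same fit called 5 lower against WT in cellulose, with 12.1% of all genes called lower. Against ΔPodot1 in glucose it called 6 lower and 1 higher, with 14.4% and 20.5% of all genes. For replicate 3 alone each comparison called 4 members, all lower, with the spread taken from the other groups, where 9.48%, 11.6% and 13.7% of all genes were called lower against the other groups, WT in cellulose and ΔPodot1 in glucose. Without replicate 1 of the labelled ΔPodot1 group 1 member was called against the other groups, lower, where 1.62% of all genes were called lower and 7.16% higher.

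PDE_09760, which KEGG describes as a DOPA 4,5-dioxygenase, an enzyme that opens the ring of an aromatic catechol, fell most. It had 508, 172 and 251 FPKM in WT in glucose, 208, 294 and 243 FPKM in WT in cellulose, and 328, 350 and 419 FPKM in ΔPodot1 in glucose. The labelled ΔPodot1 libraries in cellulose had 30.6, 96.6 and 13.9 FPKM, all 3 below the lowest of the 9 others. Log2 fold changes were -2.88 against the other groups (standard error 0.54, adjusted p = 0.00402), -2.51 against WT in cellulose (standard error 0.58, adjusted p = 0.0112) and -3.16 against ΔPodot1 in glucose (standard error 0.60, adjusted p = 0.00499), all from edgeR's quasi-likelihood test. When only the groups compared were fitted, PDE_09760 was called against neither WT in cellulose nor ΔPodot1 in glucose (6.09% and 1.85% of all genes). It was called against the other groups in each of the 21 alternative fits, with log2 fold changes from -4.53 to -2.47 and adjusted p from 4.12e-08 to 0.0294. Without replicate 2 the value was -3.89, and for replicate 3 alone -4.53. With a ratio of 1.47 between its group means PDE_09760 was close to the limit of the rule.

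PDE_01903, with no name in the sources, had 1131, 607 and 522 FPKM in WT in glucose, 1036, 700 and 508 FPKM in WT in cellulose, and 572, 646 and 698 FPKM in ΔPodot1 in glucose. In the labelled ΔPodot1 group in cellulose it had 403, 427 and 148 FPKM, all below the other 9. The log2 fold change against the other groups was -1.30 (standard error 0.38, adjusted p = 0.0309, edgeR's quasi-likelihood test). It was -1.50 without replicate 2 (adjusted p = 0.0156) and -2.35 for replicate 3 alone (adjusted p = 0.00753), both by edgeR. The call was held in 14 of 21 alternative fits, with adjusted p from 0.00207 to 0.0885 over all of them. It was lost without labelled ΔPodot1 replicate 1 in cellulose (adjusted p = 0.0672), without replicate 3 of that group (0.0885) and without ΔPodot1 replicate 3 in glucose (0.0501), each with edgeR. It was also lost with library size as the only scaling (adjusted p = 0.0569) and with limma at each of the 3 pseudocounts (adjusted p = 0.0596, 0.0599 and 0.0639).

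PDE_03440, also unnamed, had 616, 295 and 257 FPKM in WT in glucose, 381, 321 and 374 FPKM in WT in cellulose, and 299, 244 and 268 FPKM in ΔPodot1 in glucose. The labelled ΔPodot1 libraries in cellulose had 134, 250 and 118 FPKM, with replicates 1 and 3 below all others and replicate 2 among the ΔPodot1 libraries in glucose. Its log2 fold change came to -1.17 (standard error 0.30, adjusted p = 0.0182, edgeR's quasi-likelihood test), -1.53 without replicate 2 (adjusted p = 0.00198) and -1.59 for replicate 3 alone (adjusted p = 0.0180). It was called in 18 of 21 alternative fits and lost its call without replicate 1 (adjusted p = 0.0951) or replicate 3 (0.0654) of the labelled ΔPodot1 group in cellulose, and with limma on log2(FPKM + 10) (0.0549).

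Another 3 members, PDE_00192, PDE_03013 and PDE_05144, passed the adjusted p but not the 2-fold limit, with log2 fold changes of -0.98, -0.84 and -0.86 against the other groups (adjusted p = 0.0295, 0.0187 and 0.0495, edgeR's quasi-likelihood test). All were lower, as were 2.06% of all genes in this class. They are named because they are few, after their values were seen. The members called without replicate 2 but not with all 3 libraries of the group were PDE_04563 at a log2 fold change of -1.85, PDE_02556 at -1.16, PDE_00192 at -1.14, PDE_08391 at -1.03 and *prtB* at 1.02. PDE_04563 had 177, 457 and 58.5 FPKM in the labelled ΔPodot1 libraries in cellulose and 244 to 502 FPKM in the 9 others, and PDE_02556 had 205, 699 and 210 FPKM beside 237 to 596 FPKM. In both genes replicates 1 and 3 were below the 9 others while replicate 2 was within or above them.

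In terms of single libraries, the 3 labelled ΔPodot1 libraries in cellulose all lay below the 9 others in 5 members, PDE_09760, PDE_01903, PDE_05144, PDE_03013 and PDE_02248, and all above them in 2, PDE_02849 and PDE_09345. PDE_09345 had 586, 296 and 332 FPKM in these libraries and 129 to 292 FPKM in the 9 others. Its log2 fold change of 0.66 did not pass the test (standard error 0.32, adjusted p = 0.170, edgeR's quasi-likelihood test). In another 3, PDE_02556, PDE_03961 and PDE_09683, the libraries lay outside the range of the 9 on both sides, and in the other 39 at least 1 library lay within it. Among all genes tested 1.01% lay all below and 2.92% all above, and among the 170 other abundant genes 8 lay below and none above. The rule keeps the 9 libraries of a member closer together than those of other genes, which leaves more room for such a gap. Without replicate 2 the numbers were 12 below and 5 above, where the background was 6.66% and 10.3%.

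**Figure D5:**
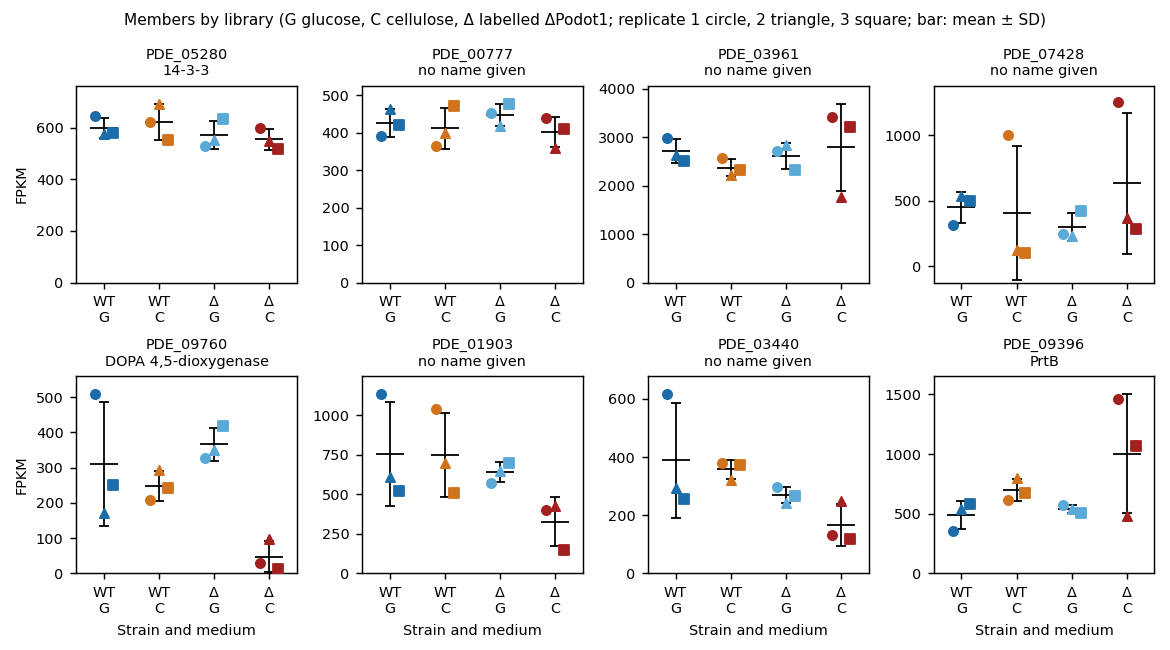
FPKM of 8 members in each library, with symbols for the replicates and the mean ± SD of each group of 3. The 14-3-3 gene PDE_05280 and PDE_00777 overlap between all 4 groups. PDE_03961 differs between the labelled ΔPodot1 libraries in cellulose, and PDE_07428 differs between libraries in both cellulose groups. PDE_09760, PDE_01903 and PDE_03440 are low in the labelled ΔPodot1 group in cellulose, where *prtB* (PDE_09396) is high in replicates 1 and 3.

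When each of the 9 libraries was left out in turn, the rule gave 38 to 59 genes, and 19 of the 49 members were chosen in all 9 selections. The 38 came without WT replicate 1 in cellulose and shared 32 genes with the 49, and the 59 came without WT replicate 3 in cellulose and shared 46. PDE_03961, PDE_05280, PDE_00777 and PDE_01695 were among the 19, as was PDE_01903, whereas PDE_09760 and PDE_07428 were chosen in 4 of the 9 selections each. With TPM in place of FPKM the level minimum was met by more genes, so that 79 genes were chosen, 47 of them shared, and with reads per kilobase scaled by TMM 41 were chosen, 39 of them shared.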

How the data were processed

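RNA was measured in 12 libraries of *P. oxalicum* WT (114-2) and ΔPodot1. The paper describes BGISEQ-500 RNA-seq mapped with HISAT and Bowtie2, whereas the labels describe tag profiling. The counting program is not given in the sources used here. The authors deposited an estimated count per gene for each library, without normalization, and the matching FPKM, normalized by them for the length of the gene and the reads mapped. Genes not listed in a table were taken as 0. Genes of near-identical sequence may share reads, and their values are uncertain to that extent. The reference name table is of a different strain with other locus tags, so names come from the tables of the study, and no sequence is shown.

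Estimated counts, as whole numbers after rounding, were tested with edgeR 4.0.16 in R 4.3.3 (filterByExpr, TMM, glmQLFit, glmQLFTest) over all 12 libraries, with 1 mean per group and Benjamini-Hochberg adjustment over the 9088 genes tested. All 49 members passed the filter. Calls needed an adjusted p under 0.05 and a change of at least 2-fold. edgeR gives no standard error, so each was taken as the size of the log2 fold change over the square root of the F statistic. The p-values set differences between group means against the spread between libraries within groups. That spread includes libraries of the labelled ΔPodot1 group in cellulose that stood apart from their label. Estimated counts summed to between 4607764 and 7081689 per library (median 6535749), and the members had at least 74 counts in every library. The procedure was run on simulated counts in which no library stood apart from its group. That run does not cover a library such as replicate 2 of the labelled ΔPodot1 group in cellulose.

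Members and lists were chosen with earlier results of these data known. Genes named were the members with a protein name, the 10 most abundant members, up to 3 of the largest calls in each direction, the 2 nearest each limit on either side, the 3 of smallest and the 3 of largest replicate spread, 3 reference genes and *Podot1*. Any other gene was chosen after its values were seen. The tests were repeated with DESeq2 1.42.0, with limma 3.58.1 on log2(FPKM + 1) and with pseudocounts of 0.1 and 10 (a scale that understates changes of low genes), other scalings, filters and thresholds, a fit of only the groups compared, a block for the replicate number, and each library left out in turn. Replicate 3 alone for the labelled ΔPodot1 group in cellulose was added after seeing the data.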

Additional observations from a re-analysis of the deposited data

How the results depend on the processing

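The rule gave 164 genes at a minimum of 100 FPKM, 18 at 400, 29 at a ratio limit of 1.3, 103 at a limit of 2 and 79 with TPM. Leaving out single libraries gave 38 to 59. The share of the members was 2.56% of the estimated counts in place of 3.16% of FPKM over the 12 libraries, and 3.12% to 3.22% with 1 library left out. The 3 members called against the other groups became 6 on adjusted p alone or with a change of at least 1.5-fold (20.1% of all genes in each), and 1 with limma on log2(FPKM + 10) (3.76% of all genes against 16.7%); with 1 library left out the number was 1 to 8. Against WT in cellulose, 3 became 0 when only the groups compared were fitted, a fit that called 6.09% of all genes in place of 25.2%, and the number was 1 to 5 with 1 library left out. Against ΔPodot1 in glucose, 1 became 2 with DESeq2, 0 with only the groups compared and 4 for replicate 3 alone (22.2%, 1.85% and 30.6% of all genes, against 17.3%), and was 1 to 7 with 1 library left out. Without labelled ΔPodot1 replicate 1 in cellulose 1 member was called against the other groups, and without replicate 2 there were 8 (8.78% and 28.5% of all genes). The median log2 ratio of the members moved from -0.18 to -0.33 on the TMM-scaled reads per kilobase and to -0.28 for replicate 3 alone, and was -0.19 to -0.13 with 1 library left out, where 32 to 41 members stayed within 1.5-fold. For the 3 members called against the other groups, the log2 fold change stayed below 0 in all 21 alternative fits. Directions in the other comparisons were not checked in this way. Over all genes, calls against the other groups were 1521, and 1106 with the replicate number as a block; the block called 3, 3 and 1 members in the 3 comparisons, as without it. Same-numbered libraries deviated together with correlations of -0.18 to 0.18, so the numbers were not taken to pair the libraries.

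The lowest count of a member in any library was 74, and each group had 3 libraries. The effect of depth on the calls was not tested. Changes that did not pass the test are not shown to be absent.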

Other observations

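A gene that was no member had values like those of PDE_09760, the member that fell most, and was singled out after the values were seen. PDE_09761, annotated as 4-hydroxyphenylpyruvate dioxygenase, an enzyme of tyrosine breakdown, had 1437, 469 and 914 FPKM in WT in glucose, 370, 761 and 410 FPKM in WT in cellulose, and 445, 465 and 553 FPKM in ΔPodot1 in glucose. In the labelled ΔPodot1 libraries in cellulose it had 12.1, 36.1 and 3.77 FPKM, in each library lower than PDE_09760 and all below the 9 others. The log2 fold change of PDE_09761 against the other groups was -5.35 (standard error 0.74, adjusted p = 0.00101, edgeR's quasi-likelihood test). It reached the level minimum in all 3 groups and missed the ratio limit at 1.93. Whether the 2 genes are next to each other in the genome was not analysed here.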
